A study of Mus musculus with 8 samples.

Results

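The genes described are the clade B serpins that changed in the skin of mouse embryos in which the corneodesmosin gene Cdsn was deleted in the epidermis, together with Gm5416, a stefin-type gene. They were taken from the authors' deposited table of changed genes as every entry whose symbol starts with Serpinb, plus Gm5416, and there were 8 of them (7 serpins and Gm5416) among 5080 genes with a symbol in that table. Gm5416 is listed in RefSeq as Csta3. The KO embryos (n = 4) carried the genotype KRT14-Cre(tg/0)/Cdsnfl/fl, in which the keratin 14 promoter drives Cre in the epidermis. The WT control embryos (n = 4) carried KRT14-Cre(tg/0)/Cdsnwt/wt, so the Cre transgene was shared by both groups, as was the C57B/6J background given in the labels. Each array held RNA of the whole dorsal skin, dermis included, of 1 embryo at embryonic stage E18.5, taken after caesarean delivery because the mutation is lethal at birth. All skins had been stripped with an adhesive disk and kept on culture medium for 4 h, so unstripped skin was not part of the comparison. Litters and sexes are not given in the labels, and in whole skin fewer cells of a type and less RNA per cell cannot be told apart.

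Serpins are protease inhibitors that present a loop as bait. The protease cuts the loop and is then trapped in a dead complex. Clade B members lack the usual secretion signal and act mostly inside cells, and many are abundant in keratinocytes, where they restrain proteases that would otherwise attack the cell itself or the cornified layer. Stefins are small cytosolic cystatins that block cysteine proteases such as cathepsins reversibly, and in human epidermis stefin A is built into the cornified envelope. Corneodesmosin holds the cells of that layer together, and Cdsn had a log2 intensity of 8.38 ± 0.42 in KO and 11.84 ± 0.18 in WT skin (SD, n = 4 each).

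Promoter sequences are shown for the 3 genes with the largest differences, whose variation among embryos of one genotype is described further on. Each run holds the 250 bases before the RefSeq transcription start, on the gene's strand in GRCm38.p6, at chr1:107511173-107511422 (+) for Serpinb2, chr16:36210153-36210402 (+) for Gm5416 and chr13:33661155-33661404 (+) for Serpinb6d. Capitals mark the matches to the motifs searched for.
Serpinb2: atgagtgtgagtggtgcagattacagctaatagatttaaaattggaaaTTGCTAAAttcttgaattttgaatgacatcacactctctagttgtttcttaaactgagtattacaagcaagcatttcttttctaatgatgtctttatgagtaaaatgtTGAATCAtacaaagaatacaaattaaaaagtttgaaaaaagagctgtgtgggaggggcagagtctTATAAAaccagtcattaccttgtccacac
Gm5416: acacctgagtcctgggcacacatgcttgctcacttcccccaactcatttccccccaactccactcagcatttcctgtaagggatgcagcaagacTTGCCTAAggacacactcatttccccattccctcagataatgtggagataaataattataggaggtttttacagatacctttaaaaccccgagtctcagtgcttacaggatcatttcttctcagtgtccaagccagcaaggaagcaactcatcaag
Serpinb6d: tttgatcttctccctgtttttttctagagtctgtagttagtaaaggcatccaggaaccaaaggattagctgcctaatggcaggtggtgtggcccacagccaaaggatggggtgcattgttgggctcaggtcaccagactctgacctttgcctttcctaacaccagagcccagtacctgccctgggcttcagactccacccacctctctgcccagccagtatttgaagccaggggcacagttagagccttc

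Both strands were searched for an AP-1 motif (TGA, any base, then TCA), TGACGTCA (CRE), TTNNGCAA (C/EBP), TTCNNNGAA (STAT), an NF-kB motif and TATAAA, the letters of the core promoter box near the start. RefSeq lists a further promoter of Serpinb2 and of Serpinb6d downstream of the one shown. The Serpinb2 window held a match to the AP-1 letters, TGAATCA, 94 bases before the start. Its free base is A, whereas the usual AP-1 site has C or G there. The window also held a TATAAA match 29 bases before the start and a C/EBP match on the other strand 202 bases before it. None of these matches overlapped. The Gm5416 window held a C/EBP match on the other strand, 156 bases before the start. The further Serpinb2 window held the same AP-1 and TATAAA letters, now 181 and 116 bases before its start, another C/EBP match 19 bases before it and a STAT match 77 bases before it. No motif matched in either window of Serpinb6d. Of all 32851 promoters in the RefSeq table, 6.75% held the AP-1 letters in the same window, 9.56% the C/EBP letters, 12.4% the TATAAA letters, 7.02% the STAT letters, 1.55% the CRE letters and 1.41% the NF-kB letters. Of the 8 genes, 7 had a promoter in the table. Among their first listed promoters, that of Serpinb2 alone held the AP-1 letters, and 0 of 7 held the NF-kB letters. With the NF-kB letters in only 1.41% of all promoters, nothing is read from this 0. These matches are letters in a window and were not measured as binding.

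The deposited table lists probe sets with a Benjamini-Hochberg adjusted p under 0.05 and a log2 difference over 0.5 in size between KO and WT, so the contrast described below is the one that chose the genes, and it is given as a description with no test. Of the 8 genes 7 were higher in KO skin, namely Gm5416, Serpinb6d, Serpinb2, Serpinb3d, Serpinb13, Serpinb9f and Serpinb9, and Serpinb1b was lower. Over all 33793 probe sets, 16.2% met the same criteria, 11.8% as higher and 4.4% as lower in KO. By the adjusted p alone 21.3% passed, 15.2% as higher and 6.08% as lower in KO. Values are log2 intensities, on which a difference of 1 is a factor of 2, and differences are KO minus WT with the standard error of the limma fit across all probe sets. The median difference of the 8 genes was 0.93, beside 0.62 over all genes named in the table. KO and WT values did not overlap in 7 of the 8, and 87.6% of all genes in the table, and 25.0% of all probe sets, showed the same separation. Probe sets outside the table carry no gene name here, so genes just outside the criteria cannot be given. The gene nearest to the criteria from inside was Serpinb9, with a difference of 0.61 and an adjusted p of 0.0489 in the authors' deposited table.

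**Figure D1:**
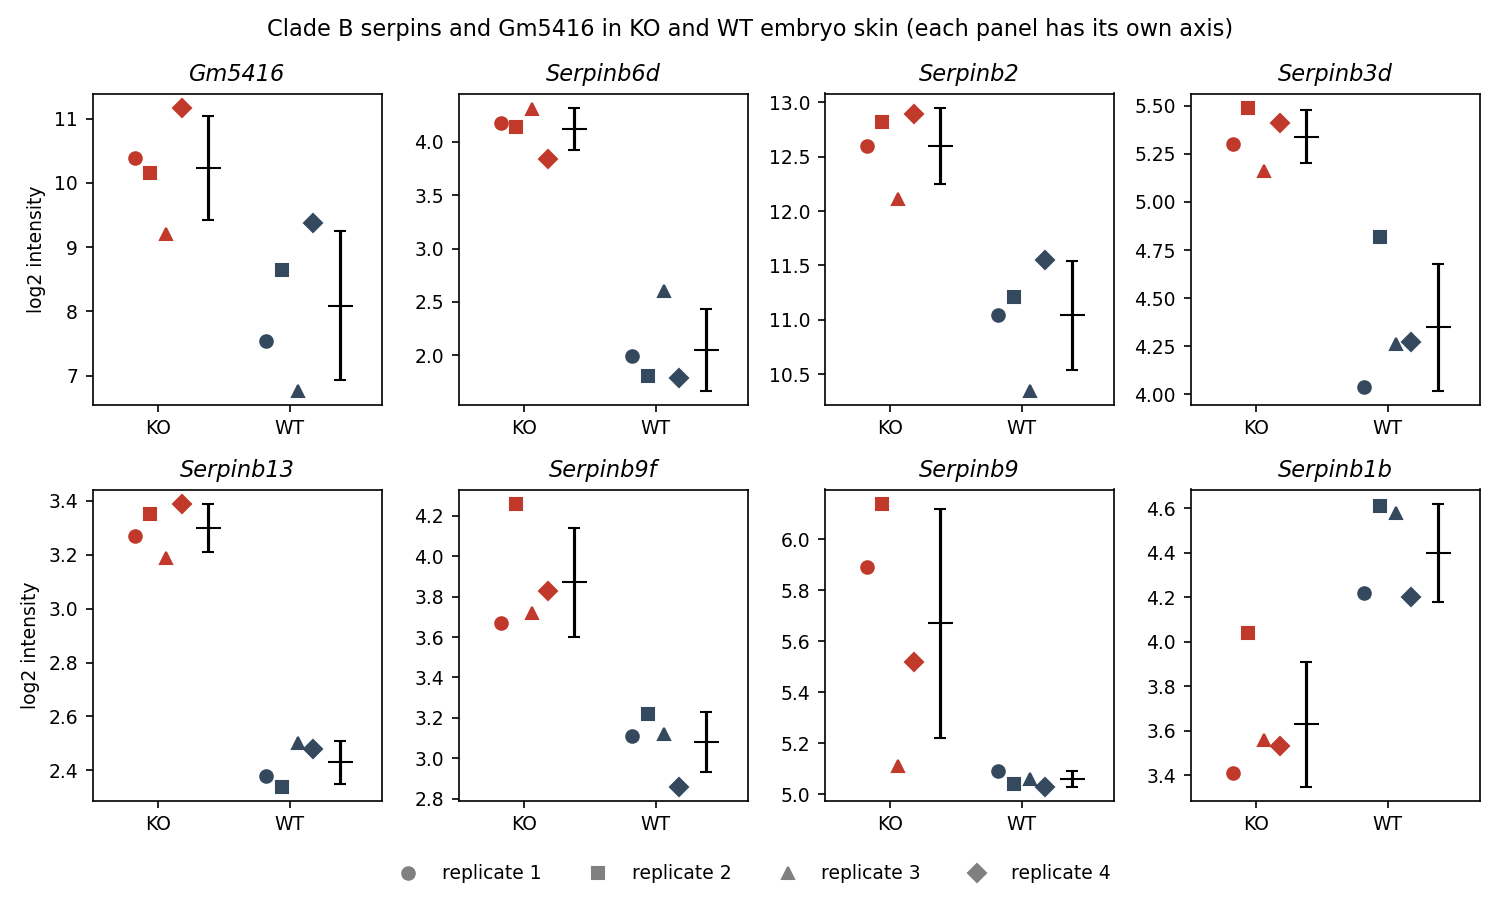
Log2 intensity of each gene on the 8 arrays, KO on the left and WT on the right of each panel, with marker shapes for the replicate number and bars for the mean ± SD (n = 4). KO values lie above WT values in Serpinb6d, Serpinb2, Serpinb3d, Serpinb13, Serpinb9f and, by 0.01, Serpinb9, overlap them in Gm5416, and lie below them in Serpinb1b.

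Serpinb2 encodes plasminogen activator inhibitor 2, which blocks the plasminogen activators urokinase (Plau) and tissue plasminogen activator (Plat), and which differentiating keratinocytes and activated macrophages are known to make. Its log2 intensity was 12.60, 12.82, 12.11 and 12.89 in KO replicates 1 to 4, against 11.04, 11.21, 10.35 and 11.55 in WT replicates 1 to 4. The lowest KO embryo thus stood 0.56 above the highest WT embryo. The means were 12.60 ± 0.35 in KO and 11.04 ± 0.50 in WT (SD, n = 4 each), a difference of 1.57 ± 0.25 (SE), or 2.97-fold. Its probe set has 22 probes, and all 8 values lay above the median of their array.

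Serpinb3d and Serpinb13 lie in the same serpin cluster as Serpinb2 on chromosome 1. Serpinb3d is a mouse relative of the human squamous cell carcinoma antigens, serpins that inhibit cathepsins and other proteases. Serpinb3d read 5.30, 5.49, 5.16 and 5.41 in KO replicates 1 to 4 and 4.04, 4.82, 4.26 and 4.27 in WT replicates 1 to 4, so that WT replicate 2 came nearest to the KO embryos. The difference was 0.99 ± 0.17 (SE), or 1.99-fold. WT replicates 1, 3 and 4 of Serpinb3d lay below the median of their array, and the other 5 values above it. Serpinb3a and Serpinb3b lie beside Serpinb3d, so its value may include their transcripts, which was not measured. Serpinb13, known in human keratinocytes as an inhibitor of lysosomal cathepsins, read 3.27, 3.35, 3.19 and 3.39 in KO replicates 1 to 4 and 2.38, 2.34, 2.50 and 2.48 in WT replicates 1 to 4. It had the smallest spread of the 8 genes in KO skin, an SD of 0.09 (0.08 in WT), and a difference of 0.87 ± 0.11 (SE). All 8 of its values lay below the array medians of 4.70 to 4.88. No detection call was used here, so whether so dim a probe set was above background is not known.

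The other serpins lie in the cluster of chromosome 13. Serpinb9 encodes the inhibitor of granzyme B that protects cells from the contents of cytotoxic granules. Its values were 5.89, 6.14, 5.11 and 5.52 in KO replicates 1 to 4 and 5.09, 5.04, 5.06 and 5.03 in WT replicates 1 to 4. The WT embryos were nearly identical (SD 0.03), whereas the KO embryos spread over 1.04 (SD 0.45), with KO replicate 3 only 0.01 above the highest WT embryo. The difference of 0.61 ± 0.20 (SE) was the smallest in size among the 8 genes and did not meet the criteria in 12 of 16 alternative settings, centring among them (adjusted p = 0.0969, limma).

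Serpinb9f, which belongs to a mouse expansion of genes related to Serpinb9, read 3.67, 4.26, 3.72 and 3.83 in KO replicates 1 to 4, against 3.11, 3.22, 3.12 and 2.86 in WT replicates 1 to 4. KO replicate 2 was the highest, and the groups were 0.45 apart. The difference was 0.79 ± 0.15 (SE). Its probe set is the only one of the 8 with an annotation class score of 3 instead of 1 in the table, whose meaning the table does not state. Close copies of this gene lie beside it, so its value may include their transcripts.

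Serpinb6d had the largest serpin difference, 2.07 ± 0.19 (SE), or 4.20-fold, from a dim probe set. It read 4.18, 4.14, 4.31 and 3.84 in KO replicates 1 to 4 and 1.99, 1.81, 2.60 and 1.79 in WT replicates 1 to 4. The groups were 1.24 apart, the widest gap of the 8 genes, and all values lay below the array medians. Its WT mean of 2.05 was the lowest of the 8 genes in either genotype, and whether it was above background is not known, so the fold and its rank rest on the dimmest values of the set.

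Serpinb1b was the single gene that was lower in KO skin. It belongs to the mouse relatives of human SERPINB1, an inhibitor of neutrophil elastase. Its values were 3.41, 4.04, 3.56 and 3.53 in KO replicates 1 to 4, against 4.22, 4.61, 4.58 and 4.20 in WT replicates 1 to 4. The highest KO embryo lay 0.16 below the lowest WT embryo, and the difference was −0.77 ± 0.16 (SE). All values again lay below the array medians.

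Gm5416, the stefin, had the largest difference and the widest spread. It read 10.39, 10.15, 9.20 and 11.17 in KO replicates 1 to 4, against 7.54, 8.64, 6.77 and 9.38 in WT replicates 1 to 4. WT replicate 4 lay above KO replicate 3, so the groups overlapped by 0.18. The means were 10.23 ± 0.81 in KO and 8.09 ± 1.16 in WT (SD, n = 4 each), a difference of 2.14 ± 0.54 (SE), or 4.42-fold. Its neighbours on chromosome 16 are close stefin copies, and probes of one may bind transcripts of another, which was not measured. Among 11 stefin-type genes of this cluster in RefSeq 2 were in the table, the other being BC117090, listed in RefSeq as Cstdc6. BC117090 was higher in KO skin, at 9.11 ± 0.49 against 8.19 ± 0.15 in WT (SD, n = 4 each), a difference of 0.92 ± 0.21 (SE).

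**Figure D2:**
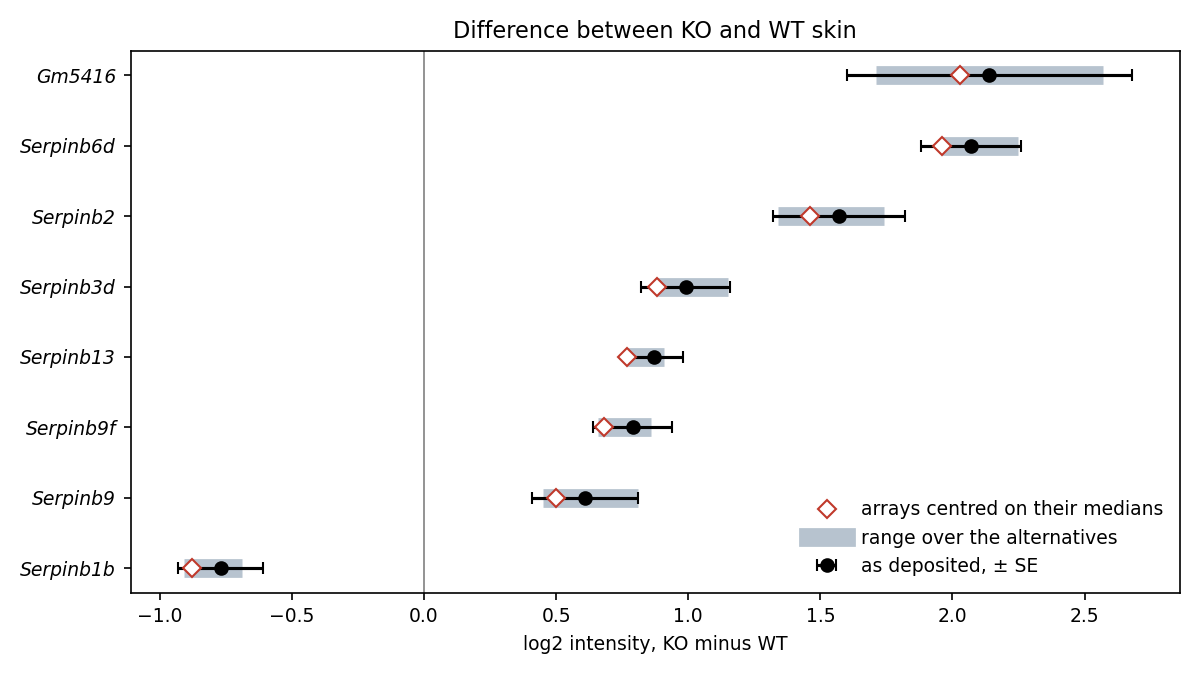
Difference in log2 intensity between KO and WT skin for the 8 genes, with points and SE as deposited, open diamonds after centring each array on its median, and grey bars for the range over the alternative settings. Gm5416 has the widest bar, 1.71 to 2.57, and every bar stays on its side of 0.

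The KO arrays were slightly brighter than the WT arrays, and centring each array lowered every difference by about the same 0.11 on the log2 scale. After centring, Serpinb2 differed by 1.46, Gm5416 by 2.03, Serpinb6d by 1.96 and Serpinb1b by −0.88. Scaling thus left the direction of all 8 genes as it was, under the centred, quantile and cyclic loess settings alike.

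In gene order, RefSeq lists 12 clade B serpins on chromosome 1 and 16 on chromosome 13, and 25.0% of each cluster was in the table (3 and 4 genes), beside 16.2% of all probe sets, a share from which nothing is read because the rule used this contrast. On chromosome 1 the 3 genes were not next to one another. Serpinb3a lies between Serpinb13 and Serpinb3d, and Serpinb3b, Serpinb3c, Serpinb11 and Serpinb7 lie between Serpinb3d and Serpinb2. On chromosome 13 Serpinb1b, which was lower, lies between Serpinb9 and Serpinb9f, which were higher. The other 21 clade B serpins, among them the keratinocyte gene Serpinb5, did not meet the criteria, were not measured, or belong to probe sets without a symbol.

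Among embryos of one genotype, Gm5416 and Serpinb2 varied alike, a pair out of the 28 compared. KO replicate 3 was the lowest KO embryo for 5 of the 7 genes that were higher in KO (Gm5416, Serpinb2, Serpinb3d, Serpinb13 and Serpinb9), and it was the lowest for 39.8% of all higher genes in the table. Relative to the mean of its genotype, Gm5416 stood at 0.16, −0.08, −1.03 and 0.94 in KO replicates 1 to 4 and at −0.54, 0.56, −1.31 and 1.30 in WT replicates 1 to 4. Serpinb2 stood at −0.01, 0.22, −0.49 and 0.28 in KO and at 0.00, 0.17, −0.69 and 0.51 in WT, so both were lowest in replicate 3 and highest in replicate 4 of each genotype. Serpinb6d ran the other way, at 0.06, 0.02, 0.19 and −0.27 in KO and −0.06, −0.23, 0.55 and −0.26 in WT.

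Over the 8 arrays these deviations gave Pearson's r = 0.93 and Spearman's rho = 0.88 for Gm5416 with Serpinb2, r = −0.92 and rho = −0.90 for Serpinb6d with Serpinb2, and r = −0.89 and rho = −0.88 for Gm5416 with Serpinb6d. Exact two-sided permutation over all orders of the arrays within genotypes gave p = 0.00694, 0.00174 and 0.00694 for these r values, and 0.0174, 0.00347 and 0.00694 for the rho values. After Benjamini-Hochberg adjustment over the 28 pairs of genes, the r of Serpinb6d with Serpinb2 had an adjusted p of 0.0487 (exact permutation). The other 2 had 0.0608 each, and no rho passed 0.05 (0.0971 to 0.122 for these 3). The unadjusted p of 0.00174 is the smallest that the 576 orders allow. The side of 0.05 on which these pairs fell thus depends on the few arrays, and no difference between the pairs is read from it. Without the 2 arrays farthest from the median of the first gene, r was 0.84 for Gm5416 with Serpinb2, −0.84 for Serpinb6d with Serpinb2 and −0.85 for Gm5416 with Serpinb6d. Serpinb9f and Serpinb1b, genes of the chromosome 13 cluster that differed between genotypes in opposite directions, had r = 0.88 and rho = 0.88 (exact permutation p = 0.00868 and 0.0104, adjusted 0.0608 and 0.0971), and r = 0.70 without the 2 farthest arrays. The other 24 pairs had adjusted p values of 0.649 to 0.983 for r (exact permutation). All arrays share their scaling, and Serpinb6d, Serpinb9f and Serpinb1b are dim, so a shared offset of an array could enter these values, which was not tested.

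**Figure D3:**
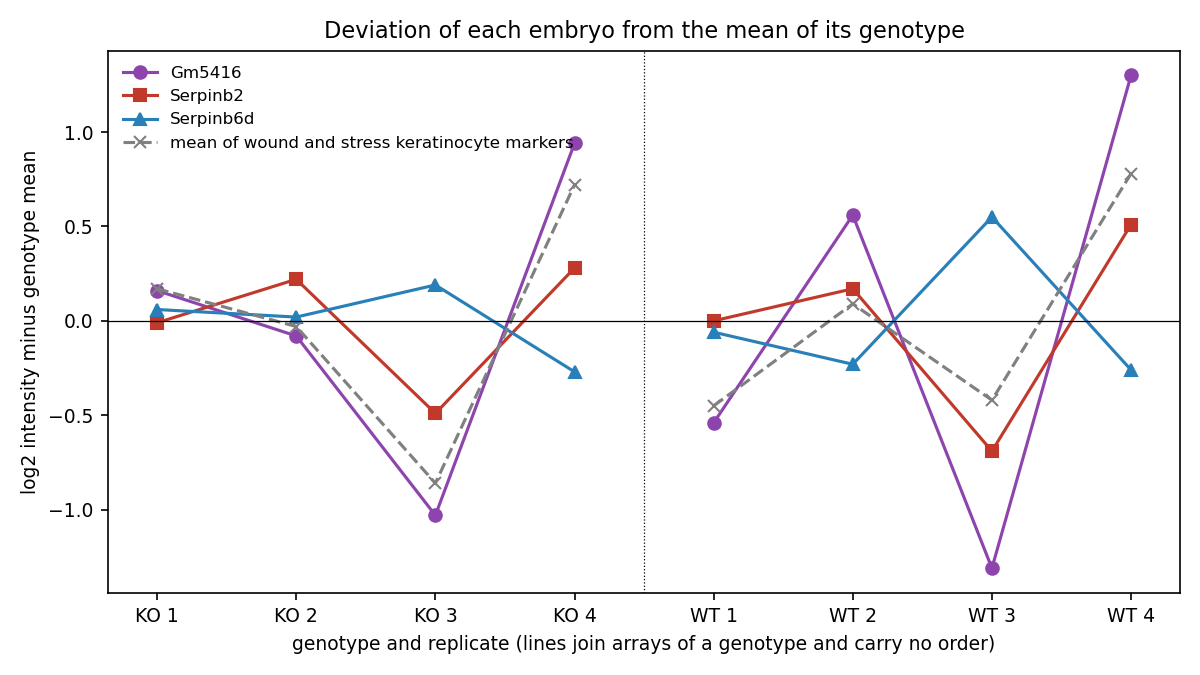
Log2 intensity of Gm5416, Serpinb2 and Serpinb6d on each array minus the mean of its genotype, KO arrays on the left and WT arrays on the right, with the mean of 13 wound and stress keratinocyte markers as a dashed line. Gm5416 and Serpinb2 are low in replicate 3 and high in replicate 4 of both genotypes, and Serpinb6d is high in replicate 3.

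Predicted Gm genes, Rik clones, small RNAs and LOC entries, 1872 of the 5080 named genes, were left out of the search for genes with like deviations. Among 3207 others, those whose deviations were most like those of Serpinb2 over the 8 arrays were Tmem56 (r = 0.982), Bik, a gene of a cell death activator (0.980), Ifi202b, an interferon-activated gene (0.978), Rem2 (0.943) and Rnf19b (0.937). For Gm5416, compared with 3208 genes, they were Rassf5 (r = 0.958), the stress keratin gene Krt6a (0.957), Plet1os (0.941), B3gnt2 (0.939) and Kcnrg (0.936). In all, 0.624% of the genes had an r over 0.9 with Serpinb2 and 0.966% with Gm5416. These partners were picked from all these genes for their r, and they include genes that were lower in KO skin (Tmem56 by −1.04 ± 0.15 and Rassf5 by −0.94 ± 0.12, SE).

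Markers of injured keratinocytes varied among the embryos as well. For the marker counts that follow, 16.2% of all probe sets met the criteria, 11.8% as higher and 4.4% as lower in KO. Each mean given covers only the genes of its list that were in the table. The contrast of KO and WT chose those genes, so a gap between the KO and WT means comes with that choice. Of 19 wound and stress keratinocyte markers 13 were in the table, all higher in KO (11 after centring), and their mean log2 intensity was 7.31 to 8.89 in KO skins and 5.74 to 6.97 in WT skins. Relative to the mean of its genotype this list stood at 0.17, −0.03, −0.86 and 0.72 in KO replicates 1 to 4 and at −0.45, 0.09, −0.42 and 0.78 in WT replicates 1 to 4. It was highest in replicate 4 of both genotypes, as were Gm5416 and Serpinb2, and lowest in KO replicate 3 and WT replicate 1. Macrophage and dendritic cell markers were in the table for 16 of 24 genes, 15 higher and 1 lower (Lyz1), with means of 6.27 to 6.47 on KO and 5.51 to 5.76 on WT arrays. T cell markers were in it for 7 of 17, all higher, with means of 5.37 to 5.52 on KO and 4.62 to 4.68 on WT arrays. Of 22 neutrophil markers 6 were in it, 5 higher and 1 lower (Trem3), with means of 4.58 to 5.21 on KO and 3.88 to 4.39 on WT arrays. S100a8 and S100a9, among these 5, are also counted among the wound and stress keratinocyte markers. After centring, 12 of the 24 macrophage and dendritic cell markers were seen to meet the criteria, beside 14.4% of all probe sets. The T cell list had 6 of 17 and the neutrophil list 4 of 22. Listed genes outside the table carry no name, so any that met the criteria only after centring are not counted. The neutrophil genes Ly6g, Mpo and Elane were not named, so their levels cannot be given. Of 12 mast cell markers 1 was in it (Mcpt4, higher), and of 10 basal keratinocyte markers 1, also higher. Of 13 suprabasal keratinocyte markers 5 were in it, all lower (5 after centring), with means of 10.66 to 10.98 on KO and 11.40 to 11.61 on WT arrays. The part of these cell markers in the levels of the serpins and of Gm5416 was not tested.

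Genes of a list drawn up around Serpinb2 and plasminogen activation were in the table more often than not. Of 14 genes of that list 8 passed the criteria, 7 higher and 1 lower in KO, against 16.2% of all probe sets. After centring 5 of the 14 were seen to meet them, all among these 8, beside 14.4% of all probe sets. Plaur, the receptor that holds urokinase on the cell surface, was at 8.32 ± 0.74 in KO and 6.77 ± 0.37 in WT (SD, n = 4 each), a rise of 1.56 ± 0.32 (SE). Plau, the urokinase gene and a target of Serpinb2, rose by 0.85 ± 0.19. Tnfrsf12a, counted among the 8 although it is the receptor of the cytokine TWEAK, rose by 1.75 ± 0.26. Klkb1, plasma prekallikrein, fell by 0.68 (SE 0.14). All Klkb1 values (3.94 at most) lay below the lowest array median of 4.70, and whether they were above background is not known. Plat, a target of Serpinb2 chosen after its values were seen, rose by 0.54 ± 0.15 and missed the threshold after centring (adjusted p = 0.0951, limma).

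Serpins of other clades did not share one direction. Of 33 genes 11 were in the table, 6 higher and 5 lower in KO, and after centring 3 of the 6 and all 5 met the criteria. Of all probe sets 11.8% were higher and 4.4% lower as deposited. Serpina3n, an acute phase inhibitor, rose by 1.43 ± 0.23 (SE), Serpina3f by 1.22 ± 0.33 and Serpina3m by 0.95 ± 0.21, whereas Serpini1, the neuroserpin gene, fell by 1.21 (SE 0.16). All Serpini1 values (3.91 at most) lay below the lowest array median of 4.70, and whether they were above background is not known. The clade B list had 7 of 28 genes in the table, 6 higher and 1 lower, as the rule sets. The difference in direction between these lists was not tested.

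Proteases were examined as well, including families that clade B serpins and stefins are known to block; 16.2% of all probe sets met the same criteria, and 14.4% after centring. Of 14 genes of cathepsins and legumain 4 were in the table, all higher, namely the aspartic protease gene Ctse (1.54 ± 0.20, SE), Ctss (0.63 ± 0.18), the legumain gene Lgmn (0.62 ± 0.11) and Ctsc (0.58 ± 0.12). After centring 2 of the 14, both among these 4, were seen to meet the criteria. Ctss missed the threshold (adjusted p = 0.0594, limma) and the difference of Ctsc was 0.47. Of 20 caspase and granzyme genes 5 were in it, all higher, led by Casp4, an inflammatory caspase (1.45 ± 0.15), and Gzmb, the target of Serpinb9, which was at 4.14 ± 0.36 in KO and 3.35 ± 0.07 in WT (SD, n = 4 each; 0.79 ± 0.17, SE). After centring 3 of the 20, all among these 5, were seen to meet the criteria. Gzmc, another granzyme gene (0.66 ± 0.17 as deposited), and Casp12 (0.54 ± 0.14, chosen after its values were seen) missed the threshold (adjusted p = 0.0534 and 0.0568, limma). Of 23 kallikreins and epidermal serine proteases 2 were in it, both higher, the matriptase gene St14 (0.68 ± 0.13) and Klk14 (0.64 ± 0.12). All values of Gzmb (4.60 at most), Gzmc (3.50 at most) and Klk14 (3.98 at most) lay below the lowest array median of 4.70. Whether these 3 genes were above background is not known. Of 13 leukocyte serine proteases 1 was in it, the mast cell protease Mcpt4 (0.78 ± 0.15).

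Other inhibitors of the epidermis were in the table for 3 of 18 genes, a share of 16.7% beside the 16.2% of all probe sets. All 3 were higher in KO: Slpi, the secreted leukocyte protease inhibitor (2.04 ± 0.43, SE), the metalloproteinase inhibitor Timp1 (1.55 ± 0.26) and Spint1, which inhibits hepatocyte growth factor activator and matriptase (0.57 ± 0.15). Spint1 missed the threshold after centring (adjusted p = 0.0588, limma).

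**Figure D4:**
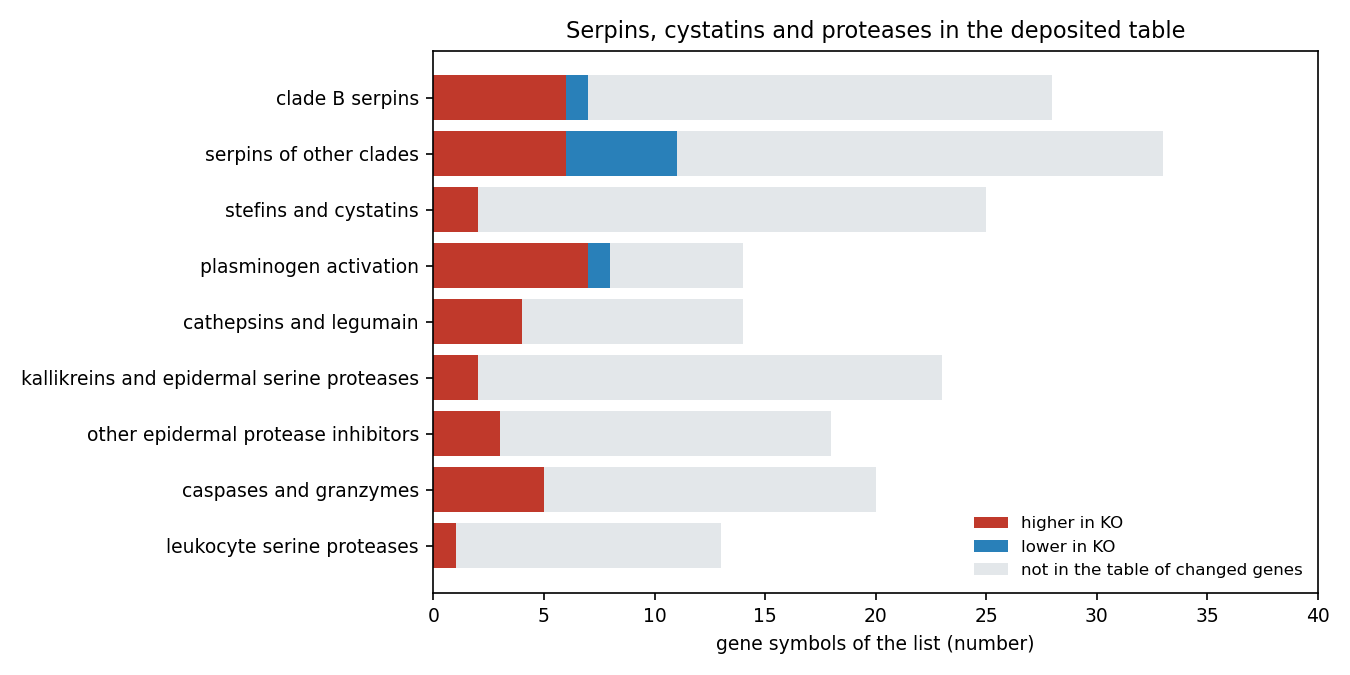
Number of gene symbols of each list that were higher (red) or lower (blue) in KO than in WT skin at the criteria of the deposited table, with the rest of the list in grey. The plasminogen activation list has 8 of 14 symbols in the table, and the stefin and cystatin list, which holds older and newer names of some genes, 2 of 25.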

How the data were processed

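RNA of 8 dorsal skins was measured on Affymetrix Gene Mouse 2.0 ST arrays, per the file headers. The deposited series values are log2 intensities, and the submitters' processing notes name RMA, with settings and a genome build not given in the sources used here. The authors' deposited table gives, per the file headers, mean log2 intensities, the fold change as a ratio, p-values, a count of probes per probe set and an annotation class score as deposited.

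Values were used unscaled in limma 3.58.1 (R 4.3.3; KO minus WT, no covariate), with Benjamini-Hochberg adjustment over 33793 probe sets; the fit returned the 5460 probe sets of the table at its criteria and was tested on simulated data. Each of the 8 genes had 1 probe set in the table, and for a gene with several there, the one with the highest mean was used. Probe sets outside the table carry no gene name, so further ones of these genes cannot be seen. All genes and lists, and the rule for naming (every gene of the set, up to 4 genes per related list by size of difference, and the 5 nearest by correlation of deviations for Serpinb2 and Gm5416), were chosen with earlier results of these data known. Some genes that the rule names are not reported here. The permutation test of correlations was added after the data were seen. No depth applies: the number of arrays limits the precision. Medians of the log2 values were 4.81 to 4.88 on KO and 4.70 to 4.80 on WT arrays, and KO replicate 3 and WT replicate 1 stood apart in a principal component analysis. Same-numbered KO and WT arrays had correlations of deviations of −0.0295, 0.141, 0.23 and 0.00588, so the numbers were not taken as pairs.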

Additional observations from a re-analysis of the deposited data

Results flagged for a closer look

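Of 82 groups of 4 values, from 41 genes named by rule, 5 held a value that stood apart by Dixon's test; at 1 in 20 groups, 4.1 would by chance. No clade B serpin was among them, nor Gm5416. In log2 intensity, KO replicate 3 was low for Rem2 at 5.84 (the rest 6.22 to 6.26), KO replicate 4 was high for Gzmc at 3.50 (2.73 to 2.86), and KO replicate 4 was low for Serpini1 at 2.26 (2.58 to 2.61). WT replicate 1 was low for Serpini1 at 3.26 (3.84 to 3.91) and for Lgmn at 8.16 (8.31 to 8.33).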

How the results depend on the processing

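Over 16 alternatives the 8 genes kept their direction wherever they were fitted, with differences of 1.34 to 1.74 for Serpinb2, 1.71 to 2.57 for Gm5416, 1.96 to 2.25 for Serpinb6d and −0.91 to −0.69 for Serpinb1b. Serpinb13 fell outside its replicate SD, to 0.77 after centring, 0.77 after quantile normalization and 0.78 after cyclic loess, from a shift of the whole array. All 8 genes met the criteria as deposited; leaving out 1 replicate at a time, 6 to 8 did. Serpinb9 was lost in 12 alternatives (the 3 scalings, no variance moderation, the replicate block, and each replicate left out except KO replicate 3), and Gm5416 in 2 (no moderation and without KO replicate 4). With dim probe sets left out, 4 genes could be fitted and all 4 met the criteria, and 3299 probe sets were called against 7194, from fewer probe sets tested. Rises were 71.4% of these 7194 calls, and 49.1% after centring, 50.5% after quantile normalization and 50.5% after cyclic loess. Leaving out 1 replicate gave 4821 to 6424 calls, and the replicate block 6250, with 7 of the 8 genes past the criteria. Each of the 8 genes had 1 probe set in the table, so the planned mean over named probe sets could not differ.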
